A study of Mus musculus with 8 samples.

Results

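The genes described here encode the subunits that the nucleus contributes to the mitochondrial respiratory chain and ATP synthase, with the assembly factors and paralogs that share their names. Members were chosen by symbol alone, as symbols that begin with Nduf, Uqcr, Cox4 to Cox8 or Atp5, leaving out Cox4i2 and pseudogenes named -ps. This gave 86 of 48490 genes, of which 82 were among the 12888 genes tested, those with 2 or more of the 8 libraries at an FPKM of 1 or above. FPKM is the number of sequenced fragments of a gene relative to transcript length and to all fragments mapped in that library. The other 4 members, Cox7a1, Cox7b2, Cox8b and Cox8c, were listed at 0 in every library. Cox4i1, the ubiquitous isoform of complex IV subunit 4, was not analysed here and is in none of the sums.

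The study profiled descendants of hypertrophic chondrocytes, the enlarged cells at the bone end of the growth plate, under a title that asks how β-catenin weighs adipogenic against osteogenic fate. All mice carried Col10a1Cre, which acts in hypertrophic chondrocytes and stays recorded in their progeny, and Rosa26-Tdtomato, a red reporter that the Cre switches on. GoF (gain of function) mice were Col10a1Cre;Rosa26-Tdtomato;Ctnnb1-exon3 Δ/+, with exon 3 of Ctnnb1, the gene of β-catenin, lost on 1 allele, LoF (loss of function) mice were Col10a1Cre;Rosa26-Tdtomato;Ctnnb1Δ/Δ, and WT mice carried Col10a1Cre;Rosa26-Tdtomato without a Ctnnb1 allele named. Each library came from 70 tdTomato-positive cells picked by hand from the proximal tibia on postnatal day 5, with 2 GoF, 4 LoF and 2 WT libraries. Whether the libraries of a group came from separate animals is not said in the labels, and the p-values below measure only how far these libraries spread, which may be technical.

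The respiratory chain passes electrons from NADH through complex I (the Nduf genes), complex III (Uqcr) and complex IV (Cox) to oxygen and pumps protons across the inner mitochondrial membrane, and complex V (Atp5) uses the proton gradient to make ATP. Complexes I, III, IV and V each combine subunits encoded in the nucleus with a few encoded in mitochondrial DNA, whereas complex II is encoded in the nucleus alone. Growth plate chondrocytes live far from blood vessels and are known for a metabolism that leans on glycolysis, osteoblasts use glycolysis and oxidative phosphorylation, and fat cells oxidise fatty acids through the same chain.

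The libraries had between 12587 and 13944 genes above 0 and FPKM totals of 353247 to 382101 in GoF, 293194 to 349378 in LoF and 324898 to 344040 in WT. The number of reads is unknown, and relative depth, read from the step between low values, spanned 1.29-fold. Ctnnb1 had 72.0 and 86.7 FPKM in GoF and 81.0, 67.3, 70.4 and 81.1 FPKM in LoF, against 137 and 146 FPKM in WT, a difference that passed the test in neither mutant (limma, adjusted p = 0.176 for GoF and 0.110 for LoF). Summed over 8 osteoblast markers, FPKM was 20781 and 20489 in GoF, 1156 to 2857 in LoF and 14948 and 15878 in WT. The ninth marker, Spp1, ran the other way, with 1200 and 1940 FPKM in GoF, 7823 to 11845 FPKM in LoF and 4236 and 3450 FPKM in WT, and was left out of the sum after its values were seen. The gap between the GoF and WT sums followed Ibsp, with means of 9070 FPKM in GoF and 4379 FPKM in WT. Col1a1 had means of 5358 FPKM in GoF and 6076 FPKM in WT. Of the 9 markers, 6 had a positive and 3 a negative log2 fold change in GoF against WT. The 6 markers of hypertrophic chondrocytes summed to 694 and 793 FPKM in GoF, 3292 to 4967 FPKM in LoF and 2372 and 1781 FPKM in WT, without overlap between groups. Most of the LoF and WT sums was Mmp13, so the order of the sums followed that gene. Mmp13 had 10.9 and 86.7 FPKM in GoF, 3113 to 4784 FPKM in LoF and 2106 and 1514 FPKM in WT. Of the 6 markers, 4 had both GoF libraries above both WT libraries and 2 had both below. Over all tested genes these shares were 21.8% and 26.2%. The 5 markers of cartilage chondrocytes summed to 63.4 and 127 FPKM in GoF, 19.2 to 69.96 FPKM in LoF and 13.6 and 14.4 FPKM in WT. Both GoF libraries and LoF replicates 2 and 3 held Y-linked transcripts, and LoF replicates 1 and 4 and both WT libraries held Xist, so GoF and WT differ in this as well as in genotype.

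Respiratory chain genes were among the abundant transcripts of these cells. The median member had a mean of 93.6 FPKM over all libraries, against 4.69 FPKM for the median tested gene, and together the members made up 2.96% and 3.29% of all FPKM in GoF, 3.16% to 3.56% in LoF and 2.55% and 2.68% in WT. The level followed the role of the gene. The 10 ubiquitous complex IV subunits had a median of 269 FPKM, the 15 complex V subunits 190 FPKM, the 8 complex III subunits 169 FPKM, the 29 accessory subunits of complex I 81.96 FPKM, and its 7 core subunits, which hold the cofactors for electron transfer, 56.6 FPKM. The 7 assembly factors named Ndufaf, which help to build complex I and are not part of it, had a median of only 9.10 FPKM. FPKM is already divided by length, and across the 82 tested members the level had a Spearman rho of -0.13 with the summed exon length, a description over genes that share their libraries.

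**Figure D1:**
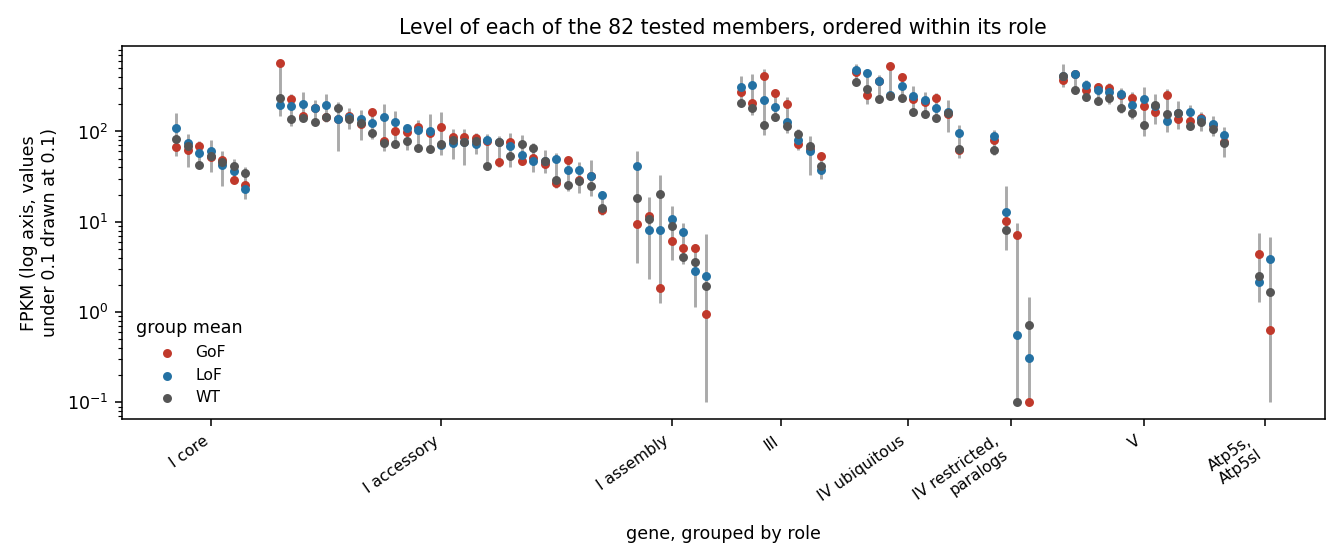
FPKM on a log axis of the 82 tested members, grouped by role and ordered within a role by their mean over 8 libraries. Points are the means of 2 GoF, 4 LoF and 2 WT libraries, grey bars run from the lowest to the highest library, and values under 0.1 are drawn at 0.1. Structural subunits fill the upper part of the plot, and the assembly factors, the tissue-restricted isoforms apart from Cox7a2l, and Atp5s and Atp5sl fill the lower part.

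The most abundant members of each complex were Cox6c and Ndufa4 of complex IV, Atp5b and Atp5e of complex V, Ndufa1 and Ndufa3 of complex I, and Uqcrh and Uqcrb of complex III. Cox6c, a small complex IV subunit, had 432 and 471 FPKM in GoF and 333, 564, 485 and 557 FPKM in LoF, against 332 and 366 FPKM in WT. Both GoF libraries stood above both WT libraries, and LoF overlapped WT. Atp5b, the catalytic β subunit of ATP synthase, had 314 and 425 FPKM in GoF and 364, 358, 381 and 562 FPKM in LoF, against 443 and 381 FPKM in WT, with overlap in every comparison. Atp5e, the ε subunit of its central stalk, had 434 and 422 FPKM in GoF and 406, 483, 380 and 468 FPKM in LoF, against 261 and 318 FPKM in WT. Every mutant library stood above both WT libraries for Atp5e, but neither difference passed the test (limma, adjusted p = 0.323 for GoF and 0.257 for LoF against WT).

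Which isoform a cell uses is a known mark of tissue for complex IV, where heart and skeletal muscle carry their own versions of several subunits. The ubiquitous isoform led in each such set here. Cox6a1 had a mean of 321 FPKM over all libraries and the muscle isoform Cox6a2 0.338 FPKM, with 6 of 8 libraries at 0. Cox7a2 had a mean of 185 FPKM and Cox8a 318 FPKM, while the muscle forms Cox7a1 and Cox8b were listed at 0 throughout. Cox7a2l, a paralog known for joining complexes III and IV into supercomplexes, had 91.2 and 71.5 FPKM in GoF and 83.4, 104, 98.7 and 73.9 FPKM in LoF, against 69.5 and 54.4 FPKM in WT. Markers of skeletal muscle summed to at most 7.33 FPKM in any library. Of the 3 genes that encode the same c subunit of the ATP synthase ring, Atp5g2 had a mean of 196 FPKM, Atp5g1 167 FPKM and Atp5g3 144 FPKM, so these lay close together.

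Against WT, 3 members were called higher and 0 lower in GoF, namely Uqcrq of complex III, Cox6a1 of complex IV and Ndufa4l2, a paralog of the complex IV subunit Ndufa4. The 3 members are 3.66% of those tested, against 1.41% of all tested genes called higher, and none was called lower, against 0.9% of all tested genes (2.31% in either direction). Ndufa4l2 is counted among the 3 but passed the filter on low values through GoF, so a difference was built into its being tested. The share is therefore no support for more calls among members. At an unadjusted p under 0.05, 13 members were higher and 2 lower, or 18.3% of members against 14.3% of all tested genes. A difference was called at an adjusted p under 0.05 (limma on log2(FPKM + 1), Benjamini-Hochberg over all 12888 genes). Of the 82 tested members, 92.7% changed by less than 1 on the log2 scale, against 75.8% of all tested genes. These shares are not matched for level. Members were more abundant, and the median SE of the change was 0.34 for members and 0.59 for all tested genes.

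Uqcrq (ENSMUSG00000044894.14, chromosome 11, 53427922 to 53430831, build mm10) encodes a small subunit of complex III that helps to bind ubiquinone. Its FPKM was 494 and 333 in GoF and 224, 229, 206 and 231 in LoF, against 147 and 91.0 in WT. The 3 groups did not overlap, with GoF highest, LoF between and WT lowest. The mean was 414 ± 114 FPKM in GoF (SD, n = 2) and 119 ± 39.3 FPKM in WT (SD, n = 2), a ratio of 3.48, and the log2 fold change was 1.80 ± 0.31 (SE, limma adjusted p = 0.0147). LoF against WT gave 0.94 ± 0.26 (limma adjusted p = 0.138) and GoF against LoF 0.87 ± 0.26 (limma adjusted p = 0.0628), so neither passed. The call in GoF against WT held in 10 of 17 alternative analyses and was lost without GoF replicate 1 (adjusted p = 0.183), without WT replicate 1 (0.0505) or WT replicate 2 (0.127), with the limma fit repeated each time, and with the Y-linked or Xist class as a covariate (0.191), with no mean-variance trend (0.0746) and in a fit of GoF and WT alone (0.149).

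Cox6a1 (ENSMUSG00000041697.8, chromosome 5, 115345642 to 115348981, mm10) encodes the ubiquitous form of a regulatory subunit that helps to hold the complex IV dimer together. It had 514 and 549 FPKM in GoF and 254, 272, 244 and 234 FPKM in LoF, against 221 and 278 FPKM in WT. Both GoF libraries lay far above all others, and LoF and WT overlapped. The log2 fold change was 1.10 ± 0.24 (SE, limma adjusted p = 0.0474) in GoF against WT, 1.08 ± 0.21 (limma adjusted p = 0.00886) in GoF against LoF and 0.0159 ± 0.21 (limma adjusted p = 0.990) in LoF against WT. The call against WT held in 1 of the 17 and was lost when any of the 8 libraries was left out (limma adjusted p = 0.0504 to 0.313). The call against LoF held in 14 of 17, and was lost without GoF replicate 1 (limma adjusted p = 0.0844), without GoF replicate 2 (0.0974) and without the mean-variance trend (0.0699).

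The region around the start of Cox6a1 is shown because it was called in both comparisons of GoF and its window holds matches to known promoter elements of respiratory genes, and the same region of Ndufa4, which moved the other way in GoF against LoF, is shown beside it. Each runs 5′ to 3′ along the gene's strand from 250 bases before to 50 bases after the RefSeq start (GRCm38.p6, minus strand, chr5:115348909-115349208 for Cox6a1 and chr6:11907401-11907700 for Ndufa4). Capitals mark matches to the searched letters.
Cox6a1: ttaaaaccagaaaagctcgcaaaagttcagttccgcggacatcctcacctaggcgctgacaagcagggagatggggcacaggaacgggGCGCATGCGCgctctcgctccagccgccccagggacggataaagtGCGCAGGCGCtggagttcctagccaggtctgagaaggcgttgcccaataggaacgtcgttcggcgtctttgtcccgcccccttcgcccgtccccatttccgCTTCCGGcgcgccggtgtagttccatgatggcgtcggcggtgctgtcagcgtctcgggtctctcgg
Ndufa4: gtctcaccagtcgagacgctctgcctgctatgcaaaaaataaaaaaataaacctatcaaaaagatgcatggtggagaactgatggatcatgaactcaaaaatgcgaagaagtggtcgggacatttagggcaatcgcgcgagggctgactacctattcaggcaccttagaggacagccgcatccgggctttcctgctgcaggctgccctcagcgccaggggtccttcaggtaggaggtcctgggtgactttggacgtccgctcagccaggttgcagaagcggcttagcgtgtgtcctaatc
In Cox6a1 the capitals are, in order, a match 162 bases before the start to the element of nuclear respiratory factor 1 (Nrf1), searched as GCGC, any base, then TGCGC, another on the opposite strand 117 bases before it, and a match to CCGGAAG on the opposite strand 16 bases before it, the element of ETS factors such as GABP. The Ndufa4 window held no match to any of the 4 motifs searched, which says only that these letters are not in this window. The windows of Ndufa1, called higher in GoF against LoF, and Ndufaf2, called lower, held none either. Whether matches go with the direction of change was not tested.

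Promoter windows of this size were found for 70 of the 86 members, and both strands were searched. The Nrf1 element was present in 17 members (24.3%), against 5.19% of 27025 genes, and the ETS element CCGGAAG in 15 (21.4%), against 9.93%. The element of YY1, AAGATGGC, was present in 9 members (12.9%), against 3.19% of genes. The element bound by TCF/LEF factors, the partners of β-catenin, was searched as CTTTGAT and was present in 1 member, Ndufa5 (1.43%), against 4.29% of genes. A match describes letters and not a bound site, and Uqcrq and Ndufa4l2 had no entry. The window of Ndufa1 is among the 70 and held no match, but its RefSeq start lies outside the deposited span of the gene, so its window may not be the promoter used.

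Ndufa4l2 (ENSMUSG00000040280.9, chromosome 10, 127514939 to 127517152, mm10) is a paralog of Ndufa4 known to be induced by hypoxia and to lower the activity of complex I. It had 9.82 and 4.51 FPKM in GoF and 0.782, 1.46, 0 and 0 FPKM in LoF, and was listed at 0 in both WT libraries. Both GoF libraries lay above all others at a low level. Outside GoF only LoF replicate 2 reached 1 FPKM, so the gene passed the filter on low values through GoF, the group where it is high, and a difference was then built into its being tested. The difference passed the test against WT (limma adjusted p = 0.0353, with no fold given against values listed at 0) and against LoF, where the log2 fold change was 2.42 ± 0.53 (SE, limma adjusted p = 0.0160). The call against WT held in 7 of 17 alternatives, and was lost without LoF replicate 1 (limma adjusted p = 0.0503), GoF replicate 1 (0.332), GoF replicate 2 (0.0965), WT replicate 1 (0.201) or WT replicate 2 (0.164), with a pseudocount of 0.1 (0.0988), with no filter on low values (0.0719) and with the Y-linked or Xist class as a covariate (0.30), and in a fit of GoF and WT alone (0.127). The call against LoF held in 12 of 17, and was lost without GoF replicate 1 (limma adjusted p = 0.219) or GoF replicate 2 (0.0513), with the covariate (0.0610) and with a pseudocount of 0.1 (0.0795), which moved the log2 fold change to 4.30. The annotated span shares 30 bases with Shmt2 on the opposite strand, and the method keeps no strand.

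Cox4i2, the hypoxia-linked isoform of complex IV subunit 4, stands outside the rule and was named after its values were seen. It had 151 and 226 FPKM in GoF and 4.72, 20.1, 6.06 and 9.37 FPKM in LoF, against 1.30 and 7.43 FPKM in WT. The log2 fold change was 5.40 ± 0.71 (SE, limma adjusted p = 0.00443) against WT and 4.26 ± 0.62 (limma adjusted p = 0.00211) against LoF. It was raised in GoF by more than any member that had a value above 0 in WT, where the largest log2 fold change was 1.80 for Uqcrq.

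Ndufa4 (ENSMUSG00000029632.7, chromosome 6, 11900292 to 11907497, mm10), named as a complex I subunit and later placed in complex IV, was called lower in GoF against LoF. It had 200 and 306 FPKM in GoF, against 444, 434, 409 and 491 FPKM in LoF, while WT had 286 and 299 FPKM. Every LoF library lay above all GoF and WT libraries, and GoF and WT overlapped. The log2 fold change was -0.84 ± 0.23 (SE, limma adjusted p = 0.0421) in GoF against LoF, 0.60 ± 0.23 (limma adjusted p = 0.288) in LoF against WT and -0.24 ± 0.27 (limma adjusted p = 0.760) in GoF against WT. The call held in 3 of 17 alternatives and was lost when any of the 8 libraries was left out (limma adjusted p = 0.0510 to 0.467).

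GoF against LoF, the comparison with the most changed genes, called 5 members of 82. Cox6a1, Ndufa1 and Ndufa4l2 were higher and Ndufaf2 and Ndufa4 lower in GoF. These are 6.10% of the members, against 11.6% of all tested genes, or 3.66% higher against 5.97% and 2.44% lower against 5.68%. Ndufa4l2 is counted here although it passed the filter on low values through GoF. At an unadjusted p under 0.05, 15.9% of members and 25.2% of all tested genes differed.

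Ndufa1 (ENSMUSG00000016427.7, X chromosome, 37187588 to 37191163, mm10), an accessory subunit needed to assemble the membrane arm of complex I, had 560 and 573 FPKM in GoF, against 148, 298, 148 and 196 FPKM in LoF, while WT had 176 and 290 FPKM. Both GoF libraries stood above all others, and LoF and WT overlapped. The log2 fold change was 1.58 ± 0.33 (SE, limma adjusted p = 0.0127) in GoF against LoF and 1.32 ± 0.38 (limma adjusted p = 0.118) in GoF against WT. Among the libraries with Y-linked transcripts, GoF had the 2 values above and LoF 298 and 148 FPKM. The call held in 13 of 17 alternatives and was lost without GoF replicate 1 (limma adjusted p = 0.0896), without GoF replicate 2 (0.0823) and with the Y-linked or Xist class as a covariate (0.0640).

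Ndufaf2 (ENSMUSG00000068184.6, chromosome 13, 108052590 to 108158625, mm10), a chaperone that stays on complex I late in its assembly, had 3.49 and 15.6 FPKM in GoF, against 33.4, 45.0, 61.2 and 26.7 FPKM in LoF, while WT had 11.7 and 24.8 FPKM. Both GoF libraries stood below all LoF libraries and overlapped WT, and LoF stood above WT. The mean was 9.55 ± 8.56 FPKM in GoF (SD, n = 2) and 41.6 ± 15.1 FPKM in LoF (SD, n = 4), and the log2 fold change was -2.24 ± 0.55 (SE, limma adjusted p = 0.0278). The call held in 12 of 17 alternatives and was lost without LoF replicate 2 (limma adjusted p = 0.0609), LoF replicate 3 (0.0529) or GoF replicate 1 (0.320, with a log2 fold change of -1.29), and with no filter on low values (0.0723).

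**Figure D2:**
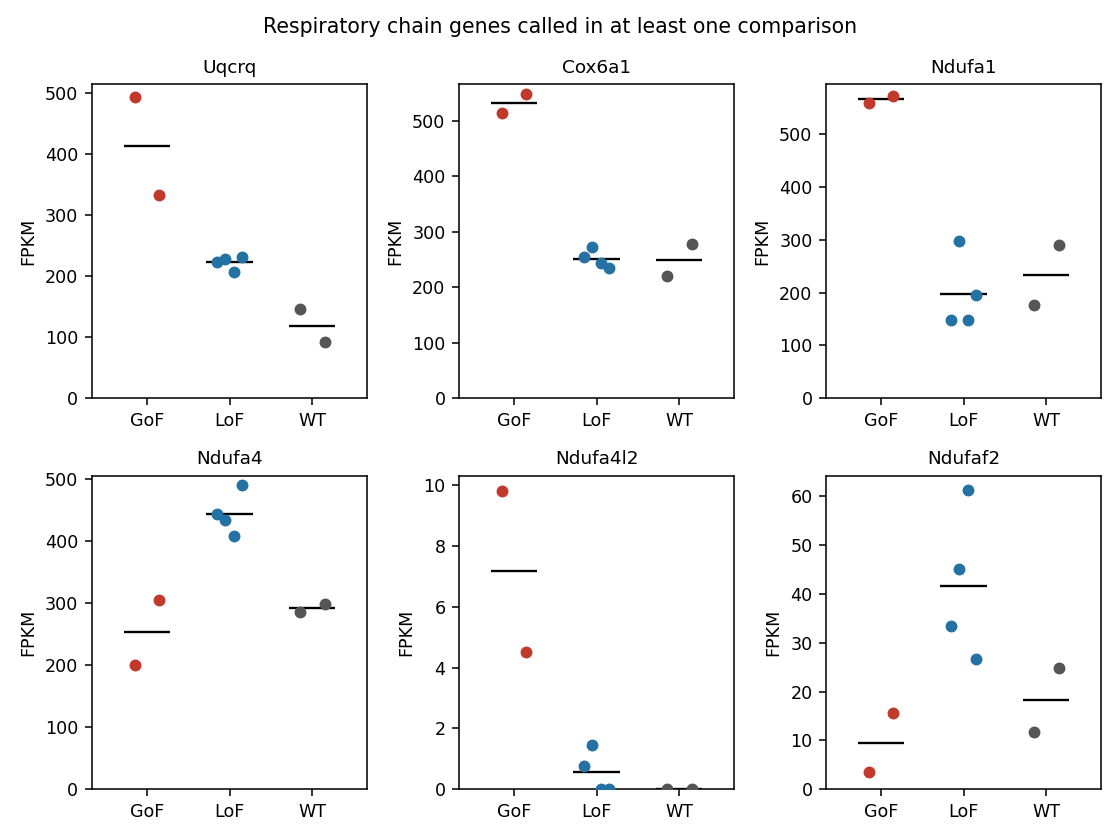
FPKM of the 6 members called in at least 1 comparison, in 2 GoF, 4 LoF and 2 WT libraries. Points are libraries and lines are group means. GoF stands above LoF and WT for Uqcrq, Cox6a1, Ndufa1 and Ndufa4l2, and LoF stands above GoF and WT for Ndufa4 and Ndufaf2.

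Other assembly factors varied widely between libraries. Ndufaf6, which also helps to build complex I, had 2.47 and 1.27 FPKM in GoF and 10.6, 3.71, 11.2 and 7.01 FPKM in LoF, against 32.6 and 7.91 FPKM in WT. Both GoF libraries were the lowest, and the difference from WT missed the test with a log2 fold change of -2.62 ± 0.70 (SE, limma adjusted p = 0.0919). The 7 assembly factors summed to 27.4 and 53.3 FPKM in GoF and 67.6 to 104 FPKM in LoF, against 84.2 and 51.1 FPKM in WT, so GoF lay below LoF and overlapped WT. In GoF against LoF 1 of the 7 was called lower and 0 higher, against 5.68% and 5.97% of all tested genes, with a median log2 fold change of -0.50, against -0.17 over all tested genes.

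Among the c subunit genes, Atp5g1 had 207 and 295 FPKM in GoF and 98.5, 103, 159 and 158 FPKM in LoF, against 149 and 167 FPKM in WT, with GoF above LoF (log2 fold change 0.96 ± 0.29, SE, limma adjusted p = 0.0596, which missed the threshold). Atp5g3, its paralog, had 111 and 150 FPKM in GoF and 126, 194, 147 and 196 FPKM in LoF, against 115 and 112 FPKM in WT. GoF and LoF overlapped for Atp5g3, and its log2 fold change of -0.33 ± 0.27 in GoF against LoF was negative (limma adjusted p = 0.481). The difference between the paralogs was not tested.

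LoF against WT called 0 members, against 1.23% of all tested genes (159 genes), of which 0.566% were higher and 0.667% lower. At an unadjusted p under 0.05, 10 members passed, all higher in LoF, or 12.2% of members against 13.4% of all tested genes. Ndufb7, an accessory subunit of complex I, came nearest to the threshold. It had 79.5, 83.0, 81.3 and 81.1 FPKM in LoF, against 37.5 and 46.2 FPKM in WT, while GoF had 65.9 and 92.6 FPKM. All 6 mutant libraries lay above both WT libraries, with a log2 fold change of 0.95 ± 0.25 (SE, limma adjusted p = 0.119) in LoF and 0.89 ± 0.29 (limma adjusted p = 0.177) in GoF against WT.

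Atp5k, the e subunit that helps ATP synthase to dimerise, had 232, 309.5, 174 and 190 FPKM in LoF, against 89.1 and 144 FPKM in WT. The groups did not overlap, and the log2 fold change was 0.96 ± 0.31 (SE, limma adjusted p = 0.208). Uqcrb, a subunit at the quinone site of complex III, had 316, 438, 258 and 305 FPKM in LoF, against 165 and 203 FPKM in WT, again without overlap and with a log2 fold change of 0.82 ± 0.29 (SE, limma adjusted p = 0.250). Uqcrh, the hinge protein of complex III, had 290, 408, 252 and 300 FPKM in LoF, against 189 and 222 FPKM in WT (log2 fold change 0.58 ± 0.25, SE, limma adjusted p = 0.342).

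More members lay above WT than below it in both mutants. The log2 fold change was positive for 53 and negative for 29 members in GoF against WT (64.6% positive, against 44.4% of all tested genes), positive for 57 and negative for 25 in LoF against WT (69.5%, against 53.2%), and positive for 36 and negative for 46 in GoF against LoF (43.9%, against 42.4%). The median log2 fold change was 0.21 in GoF against WT, where the median of all tested genes was -0.0811, and 0.33 in LoF against WT, where it was 0.0576. In GoF against LoF it was -0.0436, where it was -0.17 over all tested genes. The first 2 comparisons share the WT libraries. These shares and medians are not matched for level, and abundant genes of any kind also lay above WT more often than below it. Of 501 tested genes with a mean of at least 100 FPKM, 46.9% had both GoF libraries above both WT libraries and 21.0% had both below. For LoF these shares were 33.3% and 16.6%. By role, the medians in LoF against WT were 0.48 for ubiquitous complex IV subunits, 0.39 for accessory complex I subunits, 0.27 for complex III, 0.27 for complex V and 0.0857 for core complex I subunits. In GoF against WT they were 0.42, 0.11, 0.39, 0.24 and -0.10 in the same order. The GoF median against WT turned to -0.0488 with quantile normalization, where that of all tested genes was -0.0252, and to -0.0130 without GoF replicate 2, where that of all tested genes was -0.145. The median in GoF against LoF turned positive with median ratio scaling (0.13) and without GoF replicate 1 (0.16) or LoF replicate 4 (0.0539).

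**Figure D3:**
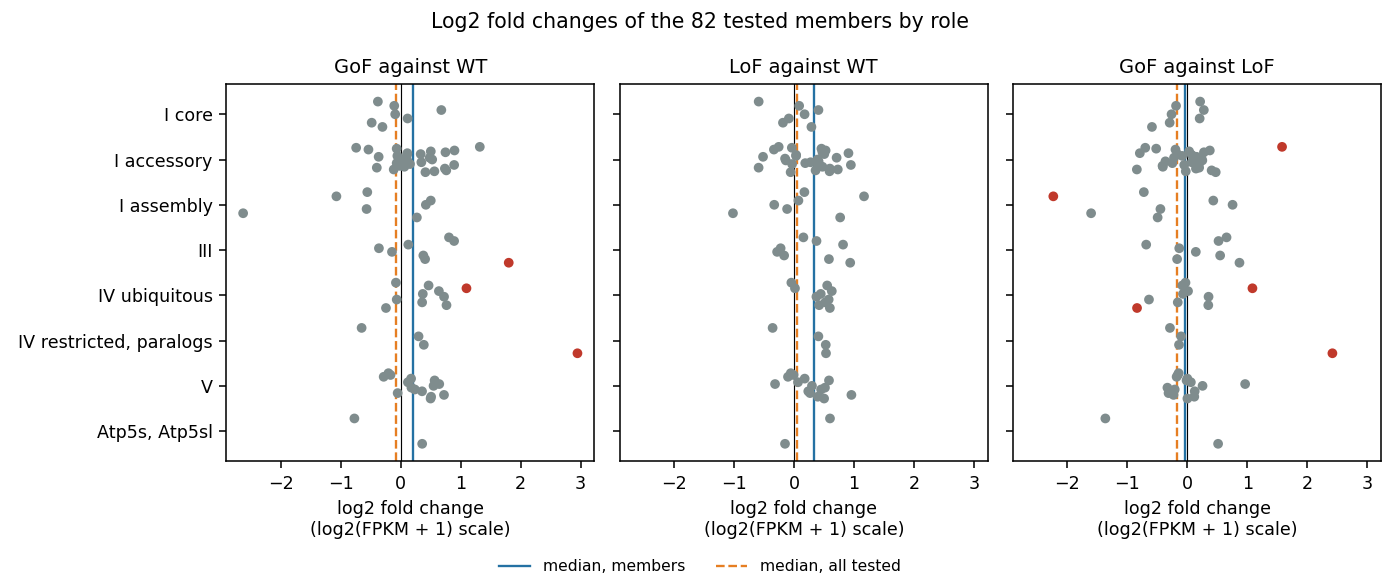
Log2 fold changes on the log2(FPKM + 1) scale of the 82 tested members by role in the 3 comparisons, with called members in red. The blue line is the median of the members and the dashed orange line that of all tested genes, and the blue line lies to the right of the orange line in each panel.

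In LoF against WT, 28 of 82 members (34.1%) had every LoF library above both WT libraries, against 11.5% of all tested genes, and 0 had every LoF library below, against 9.88%. Abundant genes separate more often, and as deposited more of them lay above WT than below it in both mutants. Among genes with a mean of at least 100 FPKM, 15 of 39 members (38.5%) and 33.3% of 501 genes lay above WT, so the members' share was near the background there, while 0 members and 16.6% of these genes lay below. The 0 below in LoF against WT depended on the scale. With median ratio scaling 25 members (30.5%) lay above and 4 (4.88%) below, against 10.7% and 11.5% of all tested genes. Quantile normalization gave 21 members (25.6%) above and 5 (6.1%) below, against 10.1% and 12.4%. In GoF against WT, 30 members (36.6%) lay above and 10 (12.2%) below, against 21.8% and 26.2% of all tested genes. Among genes of at least 100 FPKM, 53.8% of members and 46.9% of all lay above, and 5.13% of members and 21.0% of all lay below. With quantile normalization 26 members lay above and 21 (25.6%) below in GoF against WT, against 22.7% and 24.6% of all tested genes, so the low share below was not seen there against all tested genes. Among genes of at least 100 FPKM on that scale, 43.6% of members and 31.3% of all lay above, and 25.6% and 36.9% lay below. With median ratio scaling 38 members (46.3%) lay above and 7 (8.54%) below in GoF against WT, against 24.5% and 23.5% of all tested genes. In GoF against LoF, 9 members (11%) lay above and 9 (11%) below, against 14.8% and 18.7% of all tested genes.

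These counts depended on single libraries. Without LoF replicate 4, 35.4% of members lay above and 4.88% below in LoF against WT (14.0% and 14.9% of all tested genes). Without WT replicate 2, 52.4% of members lay above and 4.88% below in LoF against WT (19.0% and 21.0% of all tested genes). Without GoF replicate 1, 69.5% lay above and 14.6% below in GoF against WT (33.9% and 35.5% of all tested genes). Without GoF replicate 2, 37.8% lay above and 39.0% below (32.0% and 39.4% of all tested genes). The GoF libraries differed from each other, with member sums of 10467 FPKM in replicate 1 and 12555 FPKM in replicate 2.

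Summed per library, the 86 members reached 10467 and 12555 FPKM in GoF and 9255, 11531, 11078 and 12449 FPKM in LoF, against 8291 and 9234 FPKM in WT. Every mutant sum exceeded both WT sums, with the lowest LoF library close to the higher WT library. The mean sum was 1.31 times that of WT in GoF and 1.26 times in LoF. The sum for complex III covers the 8 genes that match the rule and leaves out its subunit cytochrome c1 (Cyc1). These 8 genes summed to 1508 and 1592 FPKM in GoF and 1286, 1564, 1239 and 1339 FPKM in LoF, against 912 and 1025 FPKM in WT, or 1.60 and 1.40 times the WT mean. Without Uqcrq the sums were 1014 and 1259 FPKM in GoF and 1062, 1335, 1033 and 1109 FPKM in LoF, against 766 and 934 FPKM in WT, or 1.34 and 1.33 times the WT mean, an alternative chosen after the values were seen. Complex IV members summed to 2705 and 3260 FPKM in GoF and 2376, 3007, 2882 and 3234 FPKM in LoF, against 2079 and 2138 FPKM in WT, or 1.41 and 1.36 times the WT mean.

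For complex V the sums were 3031 and 3758 FPKM in GoF and 2910, 3491, 3341 and 3901 FPKM in LoF, against 2660 and 2906 FPKM in WT, so the lowest LoF library barely cleared WT. For complex I they were 3187 and 3890 FPKM in GoF and 2615, 3381, 3505 and 3892 FPKM in LoF, against 2551 and 3110 FPKM in WT, with overlap between LoF and WT. Complex II, outside the rule, did not share the pattern. Its 4 genes, Sdha to Sdhd, summed to 153 and 222 FPKM in GoF and 120, 151, 206 and 234 FPKM in LoF, against 237 and 223 FPKM in WT, and 0 of 4 were called in any comparison. These sums are descriptions without a test.

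**Figure D4:**
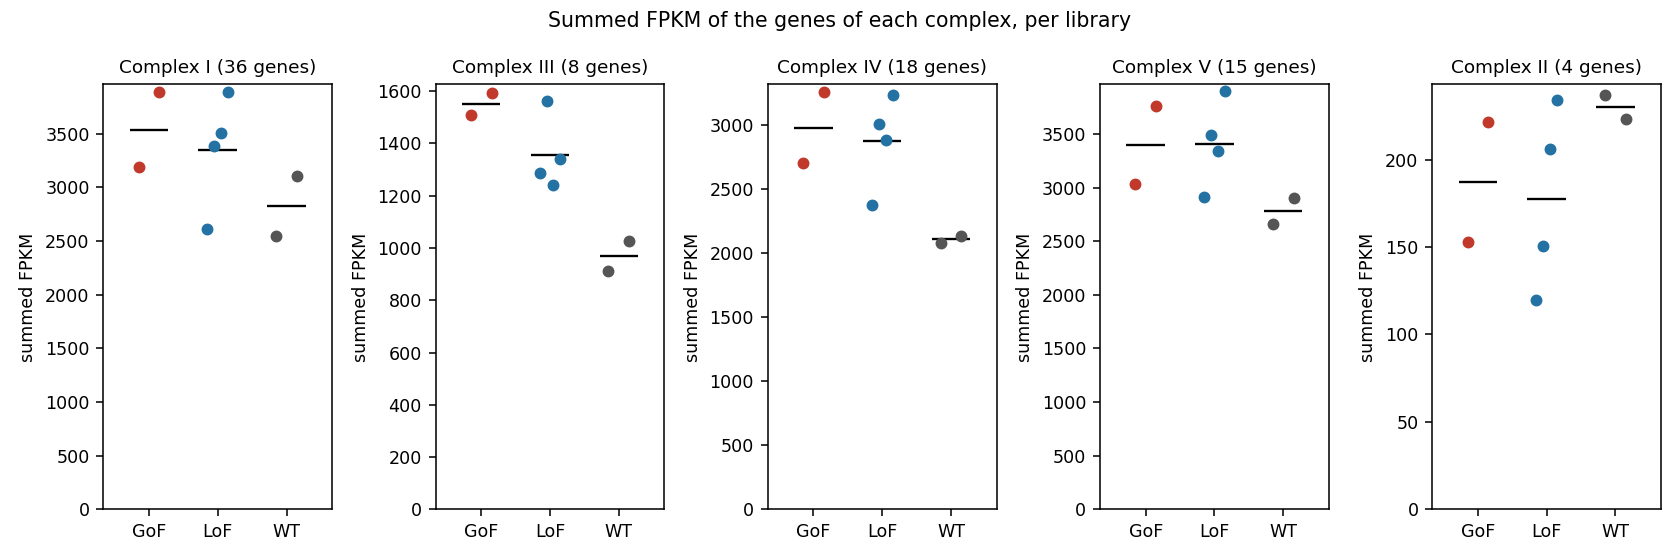
Summed FPKM of the genes of each complex in 2 GoF, 4 LoF and 2 WT libraries, with complex III lacking Cyc1 and complex IV lacking Cox4i1 and Cox4i2. Points are libraries and lines are group means. For complexes III, IV and V both WT libraries lie below all mutant libraries, for complex I they overlap with LoF, and for complex II WT is not lower.

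Marker genes of other cell types also differed between the groups. The 8 erythroid markers, led by globins, summed to 895 and 1838 FPKM in GoF, 77.4 to 2275 FPKM in LoF and 2557 and 10574 FPKM in WT, and the 10 myeloid markers to 8.61 and 11.99 FPKM in GoF, 5.49 to 64.2 FPKM in LoF and 48.4 and 183 FPKM in WT. With the erythroid markers taken out of the total, members made up 2.97% and 3.30% of FPKM in GoF, 3.16% to 3.57% in LoF and 2.57% and 2.77% in WT, so the groups still did not overlap WT. Median ratio scaling gave member sums of 11474 and 12550 in GoF, 9390 to 11385 in LoF and 7735 and 9243 in WT. The 8 adipocyte markers summed to 1.23 and 4.63 FPKM in GoF, 501 to 776 FPKM in LoF and 19.5 and 116 FPKM in WT, and the 4 brown adipocyte markers to at most 0.905 FPKM in any library. Whether these transcripts came from other cells or from the picked cells was not tested, nor was their part in the results, and in pools of cells fewer cells of a type and less RNA per cell cannot be told apart.

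Members with a short summed exon length had a higher median log2 fold change than the rest in GoF against WT, a description without a test and not matched for level. This length counts every annotated exon of a gene and is not the length of its transcript. Atp5l, counted as longer at 6443 bases, has a transcript of 544 bases. The 18 members with under 1000 bases of exon had a median log2 fold change of 0.68 in GoF against WT, with 16 of 18 positive (88.9%). The 64 longer members had a median of 0.12, with 37 positive (57.8%). Over all tested genes the medians were 0.00 for 1166 short genes (44.9% positive) and -0.0992 for 11686 longer ones (44.3% positive). In LoF against WT the medians were 0.38 for short and 0.27 for longer members, against 0.29 and 0.0423 over all tested genes. The part of length in the results was not tested.

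Members varied less between replicates than other genes. The median within-group SD on the log2 scale was 0.33 for the 82 members and 0.58 for all tested genes. Restricted to a mean of at least 100 FPKM it was 0.29 for 39 members and 0.32 for 501 genes, so most of this gap went with level. Ndufc1, an accessory subunit of complex I, varied among the LoF libraries, with 149 and 130 FPKM in GoF and 213, 82.3, 61.2 and 200 FPKM in LoF, against 180 and 186 FPKM in WT. Its LoF libraries spanned the range of the other groups, with a log2 fold change of -0.59 ± 0.47 in LoF against WT (SE, limma adjusted p = 0.644).

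Other mitochondrial genes are given for context, and their shares of calls can be read against those of all tested genes, of which 2.31% were called between GoF and WT, 1.23% between LoF and WT and 11.6% between the mutants. Of 16 tested genes of the tricarboxylic acid cycle and pyruvate dehydrogenase, 0 were called in either mutant against WT and 1 was lower in GoF against LoF, namely Fh1, fumarase. Fh1 had 10.3 and 6.77 FPKM in GoF, against 21.8, 17.7, 36.4 and 34.0 FPKM in LoF (log2 fold change -1.54 ± 0.38, SE, limma adjusted p = 0.0286), and WT had 14.9 and 16.9 FPKM. Of 14 genes of fatty acid oxidation, Acadm was higher in LoF against WT, and Acadm and Echs1 were lower in GoF against LoF. Acadm, the medium-chain acyl-CoA dehydrogenase, had 18.4 and 13.7 FPKM in GoF and 40.6, 57.5, 51.5 and 52.96 FPKM in LoF, against 12.5 and 12.6 FPKM in WT. LoF stood above all others, with a log2 fold change of 1.92 ± 0.29 (SE, limma adjusted p = 0.0187) in LoF against WT.

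Of 23 tested assembly factors of complexes III and IV, Cox20 alone was called, with 13.3 and 14.9 FPKM in GoF, against 33.3, 92.3, 56.0 and 68.3 FPKM in LoF (log2 fold change -1.98 ± 0.39, SE, limma adjusted p = 0.00962), and WT had 25.6 and 32.8 FPKM. The GoF libraries lay below all others. Of 11 tested regulators of mitochondrial biogenesis, 0 were called in the 3 comparisons. The 13 regulators listed summed to 50.1 and 43.5 FPKM in GoF, 47.3 to 92.9 FPKM in LoF and 77.6 and 78.7 FPKM in WT. Their median log2 fold change in GoF against WT was -0.74, against -0.0811 over all tested genes. Both GoF libraries lay below both WT libraries for 5 of the 11 and above for 2, against 26.2% and 21.8% of all tested genes. Ppargc1a, the coactivator that drives biogenesis in brown fat and muscle, was at 0 in both GoF libraries, at most 0.193 FPKM in LoF, and 0 and 2.16 FPKM in WT. Tfam, which maintains mitochondrial DNA, had 11.9 and 5.66 FPKM in GoF and 9.59, 4.79, 6.99 and 32.9 FPKM in LoF, against 12.2 and 17.2 FPKM in WT. Both GoF libraries lay below both WT libraries for Tfam, and LoF overlapped both groups. Cytochrome c (Cycs) and cytochrome c1 (Cyc1) were not called, and genes of membrane transport and chaperones gave 0 of 16. Cycs and Cyc1 together summed to 52.0 and 93.5 FPKM in GoF, 62.2 to 127 FPKM in LoF and 71.0 and 89.6 FPKM in WT, with overlap throughout.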

How the data were processed

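Smart-seq2 libraries were made from 8 pools of cells, per the labels' protocols. The authors deposited FPKM per gene and library. The submitters' processing notes name HISAT2, SAMtools 0.1.18, Cufflinks, HTSeq and mm10, without roles, and the annotation release is not given in the sources used here. Abundant genes lower the other FPKM values of a library, and Smart-seq2 keeps no strand. Of 48555 lines, 65 repeated a gene and were dropped. Deposited starts count from 0 and are given here from 1.

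Values were used as log2(FPKM + 1), which understates changes of low genes. A limma model (version 3.58.1, R 4.3.3, empirical Bayes with a mean-variance trend) held the 3 groups, over genes at 1 FPKM or above in 2 or more of 8 libraries, and p-values were adjusted by Benjamini-Hochberg over 12888 genes. The code was tested on simulated data. The files give no read counts, and no counting intervals were made. Alternatives were a pseudocount of 0.1, no filter, quantile normalization, median ratio scaling, a fit of the 2 groups compared, no trend, the replicate number as a block, and leaving out each library. The Y-linked or Xist class as a covariate and a rescaling without erythroid markers were added after seeing the data.

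Exon lengths came from GENCODE M21, and promoters from RefSeq (GRCm38.p6). A blastn 2.17.0 search found a copy of at least 95% identity over at least 50% of the transcript for 10 of 86 members (Atp5l had 9, the highest at a mean of 67.4 FPKM), none of them a called member, and values of those 10 are uncertain. Mitochondrially encoded genes are listed at 0 and were not analysed here. Named members were those called, the largest changes per comparison, the most abundant per complex and the isoform sets. Members and lists were chosen with earlier results of these data known.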

Additional observations from a re-analysis of the deposited data

Results flagged for a closer look

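In the LoF group of 4 libraries, 3 of 44 sets of values had a library far from the other 3 by Dixon's criterion, which chance alone meets in about 1 in 20 groups. Ndufs1, an iron-sulfur core subunit of complex I, had 34.1 FPKM in LoF replicate 4, against 18.1 to 20.8 FPKM in the other LoF libraries. Atp5b had 562 FPKM in LoF replicate 4, against 358 to 381 FPKM in the others. Cox6a2, the muscle isoform, had 1.25 FPKM in LoF replicate 2 and 0 in the others, and with the others at 0 any value above 0 meets the criterion.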

How the results depend on the processing

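LoF against WT gave 0 called members in all 17 alternatives. Few genes of any kind were called there, 1.23% of all tested genes in the main fit and 1.74% with quantile normalization. The share was 0 with only the groups compared, 0.00776% with the replicate block and 0.109% with the Y-linked or Xist class as a covariate. The count of 0 members lies near these shares. In GoF against WT the count of 3 became 1 with a pseudocount of 0.1, with no filter on low values and with no mean-variance trend, 0 with only the groups compared (where 0 of all genes were called), 0 with the replicate block (where 0.116% of all genes were called, against 2.31%) and 0 with the Y-linked or Xist class as a covariate (0.0854% of all genes), and ranged over 0 to 2 when libraries were left out. It was 0 without GoF replicate 1, WT replicate 1 or WT replicate 2 (0.383%, 0.38% and 0.665% of all genes), and 1 without LoF replicate 1 or GoF replicate 2. In GoF against LoF the count of 5 became 3 with no filter and with no trend, 2 with the replicate block (5.64% of all genes, against 11.6%) and 2 with the covariate (7.56%), and ranged over 0 to 4 when libraries were left out, with 0 without GoF replicate 1, 1 without GoF replicate 2 and 3 without LoF replicate 2. Replicate numbers did not pair the libraries (6 same-numbered pairs, r from -0.0069 to 0.030), so the block shows only how far shared numbers move the fit. With it Ndufa1 (adjusted p = 0.0501) and Ndufaf2 (0.0516) were among the calls lost by limma in GoF against LoF. The medians stayed within the spread of library medians (0.24), except that quantile normalization gave -0.0488 in GoF against WT. The replicate block gave a median of 0.14 in GoF against LoF, which turned its sign. Leaving out libraries gave medians of -0.0130 to 0.41 in GoF against WT, 0.23 to 0.41 in LoF against WT and -0.18 to 0.16 in GoF against LoF. No called member changed sign. Where a call was lost, the cause was not tested beyond the fewer libraries or genes that the alternative itself brings. With 2 libraries in GoF and WT, changes of the size most members show could not be told from the spread, and a missed call does not show that a level did not differ.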
